A study of Mus musculus with 2 samples.

Results

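Glycosaminoglycans are the long sulfated sugar chains that proteoglycans such as aggrecan carry. A tetrasaccharide linker is first built on the core protein, chondroitin or heparan synthases then extend it, and sulfotransferases decorate the chain with sulfate taken from the activated donor PAPS. In cartilage, chondroitin sulfate gives the matrix its water-holding charge and heparan sulfate binds growth factors, and mutations in several of these genes are known to cause chondrodysplasias or exostoses. Described here are the open chromatin peaks at 10 genes of this pathway: the linker enzyme gene Xylt1, the chondroitin chain genes Csgalnact1, Chsy3 and Chpf, the chondroitin sulfotransferase genes Chst11 and Chst3, the heparan polymerase genes Ext1 and Ext2, and Papss2 and Slc26a2, which supply sulfate. The genes were taken from a given list, and every peak inside a gene or within 50 kb of it was counted, out of 20807 autosomal protein-coding genes in the annotation.

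Assay for transposase-accessible chromatin (ATAC-seq) uses the enzyme Tn5 to cut and tag accessible DNA, so that sequenced fragments pile up into peaks over open chromatin. The 2 groups were the proximal and the distal cartilaginous ends of femurs of FVB mice (strain label FVBNJ) at E15.5. Tissue was pooled within a litter, 8 animals on average, and 50000 cells entered each library. Before this, the tissue of both ends was digested with collagenase to single cells. The part of this digestion in the results was not tested. Each pool held every chondrocyte zone and the perichondrium together, so a peak cannot be assigned to one of these cell layers, and fewer cells with open chromatin cannot be told apart from a less open site in each cell. Each end had 2 biological replicates, which the authors combined into 1 list of peaks, so no value below has a replicate error and no difference between the ends was tested. The proximal list held 28257 peaks and the distal list 27958, on the 19 autosomes only. Of the chondrocyte marker genes, 5 of 8 had a promoter peak in both ends (Col2a1, Acan, Sox9, Col9a1 and Matn3), Col11a2 and Comp had one in the distal list only, and Matn1 had none. Promoter peaks in both ends were also listed for 0 of 5 osteoblast, 1 of 4 skeletal muscle (Actn3), 1 of 3 endothelium (Kdr) and 1 of 3 epidermis (Krt10) markers. The part of such cells in the results was not tested.

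All 10 genes had a promoter peak in both femur ends, that is, a peak whose edge lay within 1 kb of an annotated transcript start. Beside this stood 55.0% of all autosomal protein-coding genes, or 59.1% when a promoter peak in either end was enough. Among long genes of 100 kb or more, to which 6 of the 10 belong, the shares were 75.7% and 81.3%. The members were chosen with earlier results of these data known, so these shares only describe them and test no difference. Away from promoters the picture was mixed, with at least 1 region present in a single femur end at 7 of the 10 genes, where 44.3% of all genes and 71.0% of long genes had one. Of the 6 long members 5 had such a region, and the share of all 10 members (70.0%) was close to that of long genes. A region inside the gene but away from its starts was found in 7 of 10 members (5 of the 6 long ones), against 20.7% of all genes and 75.7% of long genes.

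Merging peaks that overlapped by at least 1 bp turned the 54 proximal and 53 distal peaks at these genes into 66 regions, of 32388 in the whole genome. A peak of both ends was present in 41 of them, a proximal peak alone in 13 and a distal peak alone in 12. The shared fraction was 62.1% (95% Wilson interval 50.1% to 72.9%, covering counting error only). This interval and the next treat regions as independent, although they cluster in the same genes. Neither tests a difference from all regions. Over all regions 73.0% were shared, 14.1% proximal only and 12.9% distal only. Of the 66 regions, 48 lay over 1 kb from any annotated start, as did 18614 of the 32388. Of these 48, 24 were shared and 24 were not (interval of the shared fraction 36.4% to 63.6%), and genome-wide 62.0% of such regions were shared. By place, 11 regions were promoters (10 shared), 3 exonic (1 shared), 29 intronic (17 shared), 14 upstream (10 shared) and 9 downstream (3 shared). Of the 23 flanking regions, 7 lay within 1 kb of the start of another protein-coding gene, and all 7 were shared. The 16 other flanking regions comprised 6 shared, 5 proximal-only and 5 distal-only regions. The flanking region nearest to the 50 kb limit from inside was a distal-only region 46.2 kb from Chst11, and the nearest from outside was a shared region 50.2 kb from Chst3.

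**Figure D1:**
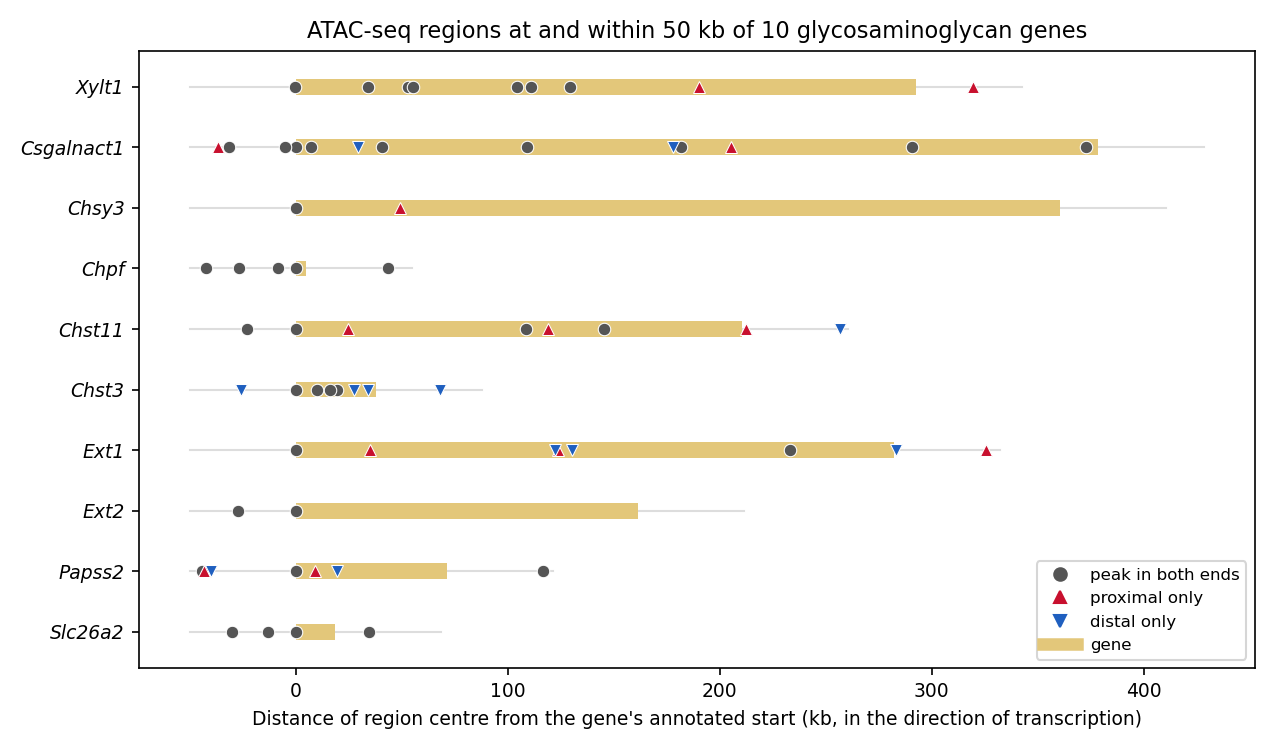
Positions of the 66 regions along the 10 genes, with distance from the gene's annotated start in kb on the x axis (transcription runs to the right), 1 row per gene, bars for gene bodies and grey lines for the gene with its 50 kb flanks. Every gene has a region with peaks of both ends at its start, while proximal-only (red) and distal-only (blue) regions lie inside Xylt1, Csgalnact1, Chsy3, Chst11, Chst3, Ext1 and Papss2 or in their flanks.

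The numbers of regions differed widely between genes, from 13 at Csgalnact1 to 2 at Chsy3 and at Ext2. Scaled to the length searched, the median was 2.65 regions per 100 kb over the 10 members and 2.07 over all genes, and the members ranged from 0.434 at Chsy3 to 5.81 at Chst3. Chst3 was the only member with distal-only and no proximal-only regions, and Ext1 had the highest number of single-end regions.

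**Figure D2:**
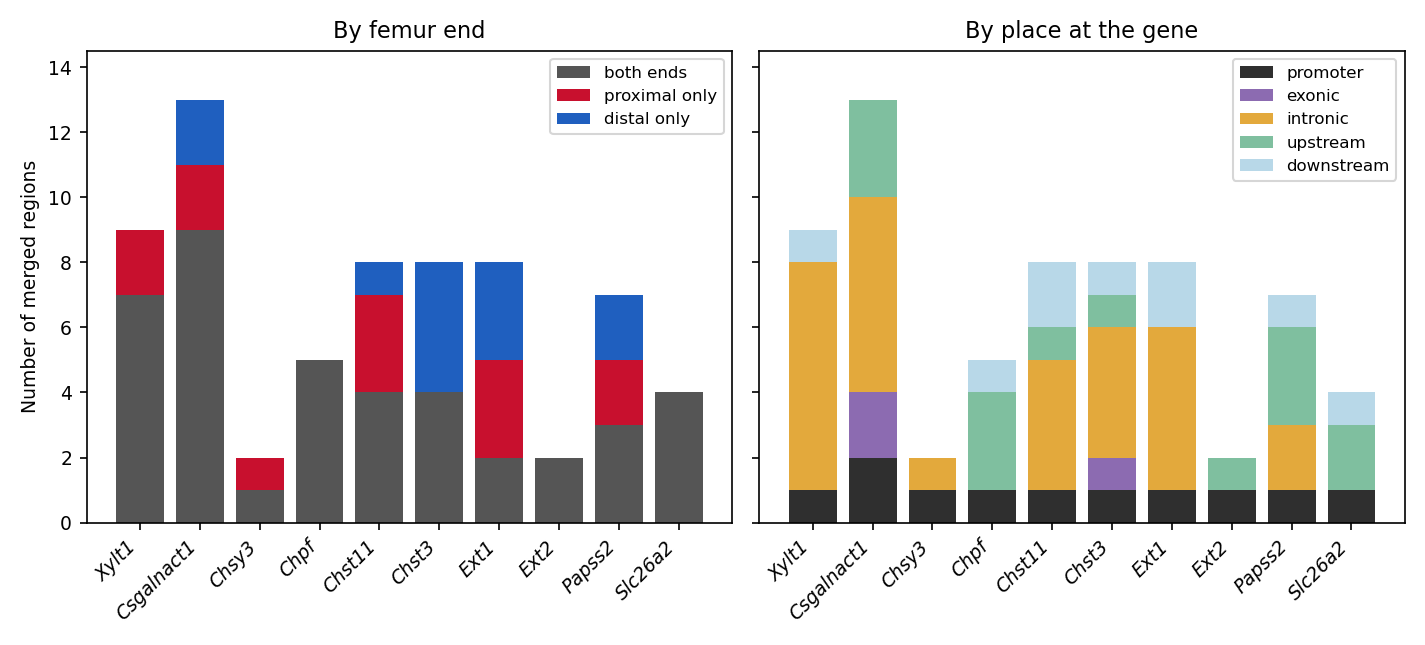
Number of merged regions at each of the 10 genes (bars stacked from 0), split on the left by femur end and on the right by place at the gene. Csgalnact1 has 13 regions, Chpf, Ext2 and Slc26a2 have shared regions only, and the 4 single-end regions of Chst3 are all distal.

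Xylt1 encodes the xylosyltransferase that attaches xylose to serines of the core protein and so starts the linker. The gene spans 293 kb of the plus strand (chr7:117380979-117673580, mm10) and had 9 regions, 7 of them shared and 2 proximal only. Its promoter region was 1660 bp wide in the proximal list and 1326 bp in the distal list, and it covered the start and part of the coding sequence. The other 6 shared regions lay in introns 1 and 2, from 34.0 to 129.4 kb past the start. The proximal-only regions lay in intron 3 (chr7:117571171-117571575, 190.4 kb past the start) and 319.4 kb past the start, downstream of the gene (chr7:117700107-117700578). The nearest distal peaks were 60442 and 38892 bp away from them. The distal list held 7 peaks at Xylt1, and the last of them lay in intron 2. An inner noncoding start, 94.5 kb into the gene, had no peak within 1 kb.

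The central 200 bp of every region were searched on both strands for 6 exact strings: TGACTCA (the AP-1 site of FOS, JUN and ATF factors), ACAATGG (a SOX site), AACCACA (a RUNX site), TGACGTCA (the cAMP response element, CRE), GGGCGGG (the GC box) and CCAAT (the CCAAT box). None of the strings contains another. A match describes the letters present and is not evidence of binding. The AP-1 string was present in the central 200 bp of 13 of the 66 regions (19.7%, against 19.9% of all regions). All 13 were over 1 kb from any start. Xylt1 had 3 of these, shown here because they comprise shared and proximal-only sites of a single gene. Their central 200 bp on the plus strand follow, with the AP-1 string or its reverse complement in capitals, for the shared region of intron 1 (chr7:117414892-117415091), the shared region of intron 2 (chr7:117491563-117491762) and the proximal-only region of intron 3 (chr7:117571274-117571473).
Xylt1 intron 1, shared: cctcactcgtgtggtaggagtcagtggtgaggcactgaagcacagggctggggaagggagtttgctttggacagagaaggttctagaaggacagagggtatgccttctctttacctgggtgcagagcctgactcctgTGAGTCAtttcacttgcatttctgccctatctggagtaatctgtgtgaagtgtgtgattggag
Xylt1 intron 2, shared: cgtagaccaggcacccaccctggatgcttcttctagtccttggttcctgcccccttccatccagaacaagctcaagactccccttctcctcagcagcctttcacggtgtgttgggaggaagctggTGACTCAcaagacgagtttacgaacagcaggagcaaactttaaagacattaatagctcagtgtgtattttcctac
Xylt1 intron 3, proximal only: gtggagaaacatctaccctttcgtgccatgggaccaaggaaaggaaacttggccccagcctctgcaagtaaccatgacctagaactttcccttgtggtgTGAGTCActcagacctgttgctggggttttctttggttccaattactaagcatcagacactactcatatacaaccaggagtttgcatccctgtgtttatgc

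Csgalnact1, whose enzyme adds the N-acetylgalactosamine that commits the linker to chondroitin, had the highest number of regions of the 10 genes. It spans 378 kb of the minus strand (chr8:68356781-68735146), and 9 of its 13 regions were shared, 2 proximal only and 2 distal only. The promoter region was 1403 bp wide in the proximal and 1245 bp in the distal list and served 4 of its 5 annotated starts. The remaining start, of a noncoding transcript, lies 205.3 kb into the gene and was covered by a proximal peak only (chr8:68529616-68530146). It was the only one of the 39 annotated starts of the 10 genes with a peak of a single end, while 27 had a shared region and 11 had no peak within 1 kb. The nearest distal peak was 23246 bp away. A distal-only region lay 178.0 kb past the start, at an exon with untranslated sequence (chr8:68556931-68557349), and another in intron 1 (chr8:68705581-68706285). The other proximal-only region was 36.8 kb upstream of the gene (chr8:68771638-68772178), 4491 bp from a distal peak. Single-end regions of both kinds were thus present, interspersed with shared regions from 31.7 kb upstream of the start to a coding exon 372.9 kb past it.

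Chsy3 encodes a chondroitin synthase that extends the chain. In contrast to Csgalnact1, this gene of similar length (361 kb, plus strand, chr18:59175401-59535999) had 2 regions. A promoter region, 1462 bp wide in the proximal and 1072 bp in the distal list, was shared and covered all 3 annotated starts. A proximal-only region of 716 bp lay in intron 2 (chr18:59224118-59224833), 49.1 kb past the start and 48422 bp from the nearest distal peak. It was the widest of the 13 proximal-only regions and held the AP-1 string. No other region was listed inside the gene or in its flanks. The related synthase gene Chsy1 had a shared promoter and 6 regions in all, 5 shared and 1 distal only.

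Chpf, the chondroitin polymerizing factor that works together with the synthases, is a compact gene of 4.74 kb (minus strand, chr1:75474569-75479307). All 5 of its regions were shared, and 4 of them lay at the starts of neighbours, namely Gmppa, Obsl1, Inha with Obsl1, and Stk11ip. The remaining region was its own promoter, 1036 bp wide in the proximal and 1110 bp in the distal list. It also lay within 1 kb of the start of the divergent neighbour Tmem198, so openness there cannot be ascribed to Chpf alone.

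In the RefSeq promoter table (GRCm38.p6, from 250 bases before to 50 after a start), 5 of the 10 members had an entry, and Xylt1, Csgalnact1, Chsy3, Ext1 and Slc26a2 had none. Of the 6 entries matched, that of Chpf alone held the CRE string, in 2 copies, while 1.79% of 32851 promoters held it at least once. The 60 bases next to its start (chr1:75479472-75479531, written 5′ to 3′ on the minus strand) hold the GC box and 1 of the CRE copies, both in capitals, and lay wholly within the peaks of both ends.
Chpf promoter: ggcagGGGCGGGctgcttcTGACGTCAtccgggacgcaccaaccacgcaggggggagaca

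Chst11 and Chst3 encode the sulfotransferases that place the 4-O and the 6-O sulfate on chondroitin. Each had 8 regions with 4 shared, and the 4 single-end regions of each were split differently between the ends. At Chst11 (210 kb, plus strand, chr10:82985498-83195900), 3 were proximal only and 1 distal only. The proximal-only regions lay in intron 1 (chr10:83009870-83010258), in intron 2 (chr10:83104297-83104775) and just past the end of the gene (chr10:83197713-83198179). The distal-only region was in the downstream flank (chr10:83242133-83242689). Its shared regions were the promoter, 1055 bp wide in the proximal and 861 bp in the distal list, 2 regions in intron 2 and 1 region 22.8 kb upstream.

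At Chst3 (37.7 kb, minus strand, chr10:60181532-60219260), all 4 single-end regions were distal only, and the gene had 8 distal and 4 proximal peaks. They were spread along the locus, 26.0 kb upstream of the start (chr10:60245059-60245419), in intron 2 (chr10:60191730-60192093), over coding and untranslated exon sequence (chr10:60184802-60185650) and downstream of the gene (chr10:60151016-60151609). The nearest proximal peaks were 24023, 7293, 13736 and 47777 bp away, respectively. The exonic region was 849 bp wide, the widest of the 12 distal-only regions, and the upstream one was 361 bp wide, the narrowest. Among all autosomal protein-coding genes, 61 (0.293%) had 4 or more distal-only regions in the window, so a count like that of Chst3 was uncommon, although Chst3 was picked out here after its count was seen. The shared regions of Chst3 lay at the promoter, 998 bp wide in the proximal and 1196 bp in the distal list, and at 9.8, 15.9 and 19.6 kb past the start in intron 1. Of the 3 annotated coding starts, the inner ones at 25.0 and 30.6 kb had no peak within 1 kb in either end. In the RefSeq promoters, Chst11 had 2 GC boxes and Chst3 none, where 25.6% of promoters held at least 1. This contrast depends on the window, as the whole promoter region of Chst3 held 3 GC boxes and that of Chst11 held 2.

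Ext1 and Ext2 encode the partners of the heparan sulfate polymerase, and their loci differed. Ext1 (282 kb, minus strand, chr15:53064038-53346159) had 8 regions, of which 2 were shared, 3 proximal only and 3 distal only. The shared regions were the promoter, 822 bp wide in the proximal and 868 bp in the distal list, and a region of intron 1 that lay 233.2 kb past the start (chr15:53112689-53113146). With 6 single-end regions, Ext1 had more of them than any other member. This count was reached by 57 genes in all (0.274%) and by 2.32% of genes of 100 kb or more, and Ext1 was likewise picked out after its count was seen. Intron 1 held 2 proximal-only regions, at 34.9 and 123.6 kb past the start, and 2 distal-only regions, at 122.4 and 130.4 kb. Downstream of the gene were a distal-only region (chr15:53062705-53063228) and a proximal-only region (chr15:53020220-53020822).

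A pair of the Ext1 regions lay next to each other. The proximal peak (chr15:53222409-53222781, 373 bp) and the distal peak (chr15:53223380-53224119, 740 bp) were separated by 598 bp. Of the members' regions, 2 of 13 proximal-only (15.4%) and 1 of 12 distal-only (8.33%) were within 1 kb of a peak of the other end, and over all regions these shares were 4.06% and 4.10%. Shown are the central 200 bp on the plus strand of the shared intron 1 region (chr15:53112818-53113017), of the proximal-only member of the pair (chr15:53222496-53222695) and of the distal-only member (chr15:53223650-53223849), because these are the 3 kinds of region within a single intron. Capitals mark the AP-1 string or its reverse complement, with 2 copies in the shared region, 1 in the proximal-only and 0 in the distal-only region. These counts do not follow status throughout the intron. Its other proximal-only region (chr15:53311017-53311599) had 0 copies. Its other distal-only region (chr15:53215393-53216106) had 1 copy, outside the central 200 bp.
Ext1 intron 1, shared: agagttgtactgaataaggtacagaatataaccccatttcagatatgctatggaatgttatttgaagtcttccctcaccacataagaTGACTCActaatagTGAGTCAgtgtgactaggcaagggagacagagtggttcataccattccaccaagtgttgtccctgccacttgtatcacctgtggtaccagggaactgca
Ext1 intron 1, proximal only: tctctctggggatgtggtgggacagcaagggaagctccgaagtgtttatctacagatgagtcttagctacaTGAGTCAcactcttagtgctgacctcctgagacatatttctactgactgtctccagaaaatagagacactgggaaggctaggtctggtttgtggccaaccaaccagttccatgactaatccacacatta
Ext1 intron 1, distal only: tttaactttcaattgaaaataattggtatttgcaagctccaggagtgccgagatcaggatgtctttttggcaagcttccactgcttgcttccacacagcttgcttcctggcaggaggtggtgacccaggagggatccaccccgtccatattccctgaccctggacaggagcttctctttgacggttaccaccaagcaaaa

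Ext2, by contrast, had a shared promoter region and no other region inside its 162 kb (minus strand, chr2:93661028-93822568). The promoter peak was 723 bp wide in the proximal and 683 bp in the distal list, both the narrowest of the 10 genes, and it covered 6 of the 10 annotated starts. The 4 others, 26.6 to 118.1 kb into the gene, had no peak within 1 kb. The second region, 27.3 kb upstream, was shared and lay at the start of Accs.

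Papss2 encodes the synthase that makes the sulfate donor PAPS. The gene (71.4 kb, plus strand, chr19:32595790-32667187) had 7 regions, of which 3 were shared, 2 proximal only and 2 distal only. Its 2 annotated coding starts are 24.2 kb apart, and the outer one carried a shared region, 846 bp wide in the proximal and 898 bp in the distal list. The inner start had no peak within 1 kb in either end. Between the starts lay a proximal-only region of 327 bp (chr19:32604570-32604896), the narrowest of the proximal-only regions, and a distal-only region of 632 bp (chr19:32614697-32615328). The 250 bases before each RefSeq start are shown because 1 was open and the other was not listed. The outer window (chr19:32595465-32595714) belongs to a promoter entry with 66.3% GC and 27 CpG dinucleotides in 300 bases, of which 276 lay in the proximal and 300 in the distal peak. The inner window (chr19:32619755-32620004) belongs to an entry with 44.3% GC and 1 CpG, and 0 of its bases lay in a peak. Capitals mark the GC box in the outer window and the CCAAT boxes in the inner window, all as their reverse complements. The CCAAT string was present in 37.4% of all promoters.
Papss2 outer start: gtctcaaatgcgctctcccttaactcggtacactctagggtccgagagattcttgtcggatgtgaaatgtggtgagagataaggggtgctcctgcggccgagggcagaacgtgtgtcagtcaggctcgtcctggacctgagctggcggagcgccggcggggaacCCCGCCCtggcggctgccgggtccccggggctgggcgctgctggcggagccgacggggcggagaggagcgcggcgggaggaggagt
Papss2 inner start: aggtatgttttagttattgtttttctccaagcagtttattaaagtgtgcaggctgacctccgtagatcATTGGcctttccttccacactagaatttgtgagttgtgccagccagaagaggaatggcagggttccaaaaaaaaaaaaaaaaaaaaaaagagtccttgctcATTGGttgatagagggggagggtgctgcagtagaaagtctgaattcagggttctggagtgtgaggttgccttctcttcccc

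Upstream of Papss2 a group of 3 regions lay 40.2 to 44.1 kb from the start. The shared region (chr19:32551383-32551990) held a proximal peak of 598 bp and a distal peak of 484 bp. A proximal-only region followed (chr19:32552083-32552514), 216 bp from the distal peak of its shared neighbour, the smallest such distance among the members. A distal-only region (chr19:32555314-32555917) lay 2799 bp beyond it. When a peak of the other end within 1 kb was enough to count as shared, an alternative chosen after seeing the data, this proximal-only region and the Ext1 pair were the regions affected. The central 200 bp of the shared region (chr19:32551587-32551786) and of the proximal-only region (chr19:32552199-32552398) on the plus strand both hold the AP-1 string, in 2 copies and 1 copy, given in capitals.
Papss2 upstream, shared: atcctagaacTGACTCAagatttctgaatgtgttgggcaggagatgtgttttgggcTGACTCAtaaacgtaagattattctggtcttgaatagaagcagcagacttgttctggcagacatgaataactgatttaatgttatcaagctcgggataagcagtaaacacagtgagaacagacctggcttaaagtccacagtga
Papss2 upstream, proximal only: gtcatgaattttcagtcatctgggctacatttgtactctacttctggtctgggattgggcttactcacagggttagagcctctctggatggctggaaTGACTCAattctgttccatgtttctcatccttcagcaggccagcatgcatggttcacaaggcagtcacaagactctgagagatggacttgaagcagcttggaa

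The remaining shared region of Papss2 lay 116.5 kb past its start, at the start of the neighbour Atad1. Slc26a2, the sulfate transporter of the cell membrane, had 4 regions, all shared (18.7 kb, minus strand, chr18:61192919-61211612). They were the promoter, 857 bp wide in the proximal and 769 bp in the distal list, regions 12.9 and 30.0 kb upstream, and a region 34.6 kb past the start that lay at the start of Hmgxb3. An inner coding start, 11.2 kb into the gene, had no peak within 1 kb. Together with Chpf and Ext2 it was a member without any single-end region, and these genes had 0 regions inside the gene apart from the promoter.

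Peak width was the only other quantity in the lists, which hold no height or score. Promoter peaks of the 10 genes were 723 to 1660 bp wide in the proximal list (median 1017 bp) and 683 to 1326 bp in the distal list (median 985 bp), and 6 were wider in the proximal and 4 in the distal list. Over the 41 shared regions the proximal peak was wider in 23 (56.1%, against 57.1% of all shared regions) and the median widths were 780 and 785 bp. Single-end peaks were narrower, with medians of 472 bp for proximal-only and 599 bp for distal-only regions, and genome-wide the corresponding medians were 510 and 497 bp, against 761 and 738 bp for peaks in shared regions. Over 1 kb from any start the differences were smaller. There, proximal and distal peaks of shared member regions had medians of 680 and 670 bp, and single-end ones 470 and 599 bp. Genome-wide these medians were 626 and 590 bp for shared and 504 and 473 bp for single-end regions. The part of width, and of the sequencing depth that could set it, in single-end status was not tested. GC content also went with status. Its median was 52.7% in shared and 47.2% in single-end regions, but among regions over 1 kb from any start the medians were 47.1% and 46.7%. Repeat-masked sequence made up 8.37% of the bases of single-end member regions, and 11.7% of those of all single-end regions.

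**Figure D3:**
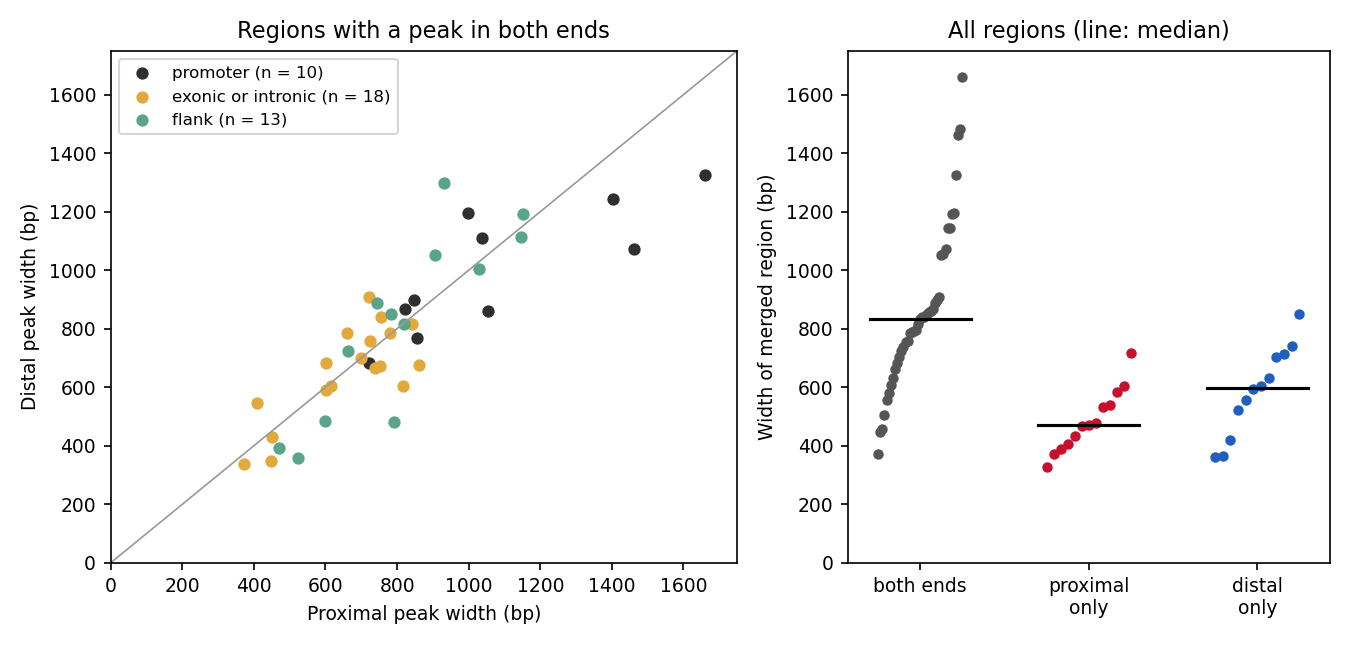
Left, width in bp of the distal peak against the proximal peak for the 41 shared regions, with the line of equal width and colours for promoter, exonic or intronic, and flank. Right, width in bp of the merged region by status, 1 point per region and a line at the median: 832 bp for shared, 472 bp for proximal-only and 599 bp for distal-only regions; a merged shared region spans peaks of both lists and is wider partly for that reason.

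In the central 200 bp of the regions, the AP-1 string was found at Xylt1 (3 regions), Csgalnact1, Chst3, Ext1 and Papss2 (2 regions each), and Chsy3 and Slc26a2 (1 region each). It was present in 8 of 24 shared regions away from starts, in 4 of 12 proximal-only and in 1 of 12 distal-only ones, beside 30.7%, 34.7% and 24.3% of all such regions. With so few regions these member counts cannot be read as a difference between the ends. The distal-only region with the string in its central 200 bp was the exonic one of Chst3. In whole regions, the string also occurred in distal-only regions downstream of Chst3, downstream of Ext1 and in intron 1 of Ext1. No further proximal-only region held it. Shared regions that held it only outside the central 200 bp included the promoter region of Xylt1, with 3 copies. Such regions also lay at Csgalnact1 (in intron 1 and 5.2 kb upstream) and at Chst11 (in intron 2 and 22.8 kb upstream). The others were the region 30.0 kb upstream of Slc26a2 and that at the start of Gmppa, downstream of Chpf. The RUNX string was found in 1 of 66 central windows (all regions, 4.63%), in the shared region of Csgalnact1 that lies 290.5 kb past its start. In whole regions it also occurred in shared intron 1 regions of Xylt1, the promoter region of Chst3, and distal-only regions of Csgalnact1 and Ext1. The SOX string was present in 0 of the 66 central windows (all regions, 1.21%). In whole regions it occurred once each in shared intronic regions of Csgalnact1, Chst3 and Ext1. The GC box was found in 14 of 66 central windows (all regions, 15.7%) and the CCAAT box in 12 (all regions, 22.5%). The CRE was found in 0 of the central windows (all regions, 1.08%).

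Among 45 other genes of the pathway, 43 are autosomal, while Chst7 and Hs6st2 on chromosome X were not covered by the lists. A promoter peak in both ends was listed for 36 of the 43 (83.7%), in the distal end alone for Extl1, an exostosin-like glycosyltransferase gene, and Sulf2, which encodes an extracellular sulfatase, and in neither for B4galt7, Chst13, Ndst1, Hs3st2 and Slc26a1. At least 1 single-end region was found at 25 of the 43 (58.1%). Of all autosomal protein-coding genes, 55.0% had a promoter peak in both ends and 44.3% a single-end region. Among genes of 100 kb or more these shares were 75.7% and 71.0%. The 198 regions of the 43 pathway genes comprised 152 shared, 18 proximal-only and 28 distal-only ones. The members had 13 proximal-only and 12 distal-only regions.

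**Figure D4:**
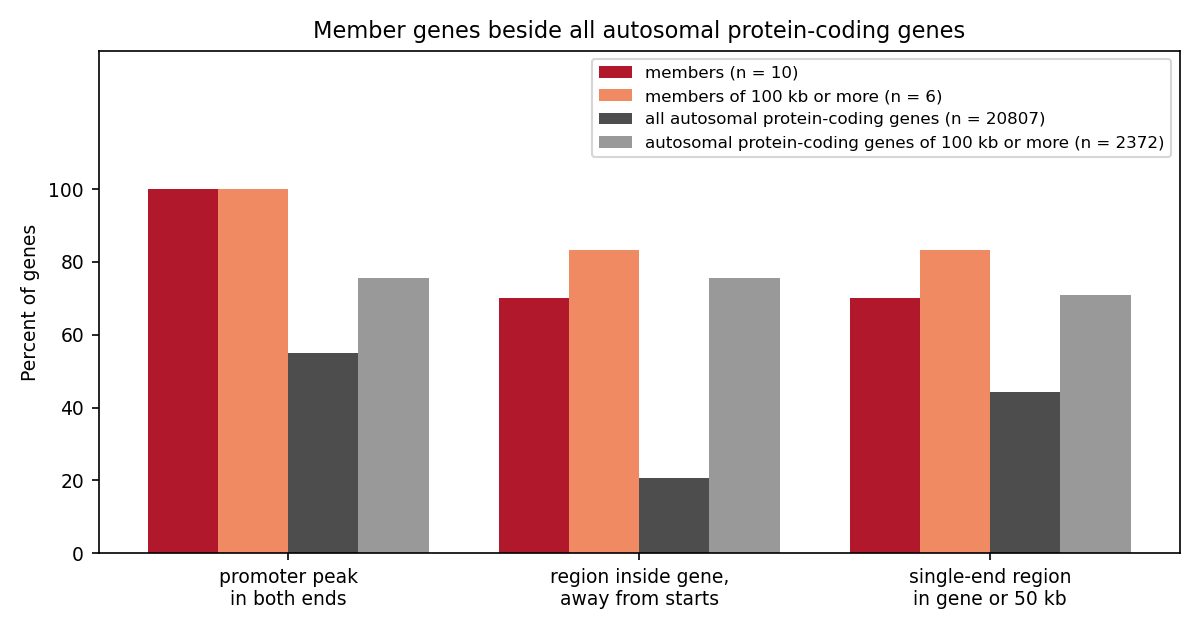
Percent of genes with a promoter peak in both ends, with a region inside the gene away from its starts, and with a single-end region in the gene or its 50 kb flanks (bars from 0), for the 10 members, the 6 members of 100 kb or more, all 20807 autosomal protein-coding genes and the 2372 of 100 kb or more. The members reach 100% for promoters, where long genes reach 75.7%, and 70.0% for single-end regions, where long genes reach 71.0%. The members were chosen with earlier results of these data known, and no difference was tested.

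By role, the linker genes with single-end regions were B3galt6 (3 distal only), Fam20b (2 proximal only) and Pxylp1 (2 distal only). Of the chondroitin chain genes Csgalnact2 had 1 distal-only region, besides that of Chsy1. Among genes of chondroitin sulfation and epimerization, Chst12, Chst14 and Chst15 had 1 distal-only region each, Ust had 2 proximal-only and 1 distal-only, and Dse had 1 of each. The 2 single-end regions of Extl1 were distal only. Of the genes of heparan sulfation and epimerization, 12 of 15 autosomal ones (80.0%) had a single-end region. Beside this stood 44.3% of all autosomal protein-coding genes and 71.0% of those of 100 kb or more. Ndst1, an N-deacetylase and N-sulfotransferase of heparan, had 4 distal-only regions and no promoter peak, Hs6st1 had 2 distal-only, Glce and Hs3st1 had 1 distal-only each, and Sulf2 had 2 distal-only and 1 proximal-only. Hs3st3b1 had 2 proximal-only regions, Ndst3 and Hs3st3a1 had 1 each, and Ndst4, Hs2st1, Hs6st3 and Sulf1 had 1 of each kind. In the supply of sulfate donor and sugars, single-end regions were found at 2 of 9 genes, Ugdh with 3 proximal-only and Slc26a1 with 1 proximal-only, and none was distal only. Papss1, which encodes the other PAPS synthase, had its shared promoter and no further region, where Papss2 had 7.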

How the data were processed

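Open chromatin was profiled by ATAC-seq in both ends of the embryonic mouse femur, with 2 biological replicates per end. Per the labels and the study's methods, reads were mapped by the authors to mm10 using Bowtie2 (2.2.8), peaks were called using MACS2 (2.1.1 in the submitters' processing notes), and those that recurred in the replicates were retained at an irreproducible discovery rate under 0.05. The deposited files hold, per femur end, 1 list of peak positions (chromosome, start, end) without height, score or count, and the depth of the libraries was not analysed here.

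Starts were taken as counted from 0. Peaks overlapping by at least 1 bp were merged. Regions were placed at genes with GENCODE mouse release 21 and on the GRCm38 assembly, which is mm10, with Python 3.11.15, NumPy 2.4.6, SciPy 1.17.1 and pysam 0.24.0. Intron numbers follow the longest coding transcript. Merging and placing were tested on simulated peaks, of which 131 of 131 were recovered. A further marker list is not reported here. The members and lists were chosen with earlier results of these data known. Besides the members, pathway genes lacking a promoter peak in an end or holding a single-end region were named, and genes whose start lay within 1 kb of a flanking region. A missing peak means that none was listed, not that the site was closed.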

Additional observations from a re-analysis of the deposited data

How the results depend on the processing

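No paired analysis was possible because each list merges its replicates, and for the same reason no replicate could be left out. Of the values recomputed under alternatives, 67 planned and 18 added after seeing the data stayed within 1.5 times the count reported (the shared percentage within its interval), and 5 planned ones moved. All 5 moved when peaks narrower than their list's median width were dropped, which left 36 regions in the member windows, 22 with a peak of both ends, 7 proximal only, 7 distal only and 14 intronic. Under the same setting 9 of the 10 genes, not 10, had a promoter peak in both ends, as the distal promoter peak of Ext2 (683 bp) is narrower than the distal median of 691 bp. Fewer regions follow from that setting by construction. Likewise, many of the unmoved values could not move. A changed promoter distance or set of starts leaves the region and single-end counts as they were. A changed window leaves the promoter and intronic counts as they were. The tally of unmoved values is thus not a measure of stability. The lists carry no peak height, so the call of a single-end region rests on the threshold of the authors' peak caller, and the depth of the libraries was not analysed here.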
